A study of Danio rerio with 6 samples.

Results

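Of the 289 miRNAs with a normalized read count in zebrafish ovarian follicular cells, 44 had names starting with PC, and these 44 are described here. They were taken by name alone, and they are predictions. These small RNAs matched no precursor of zebrafish, or of the other species the study selected, in the reference collection of miRNAs. They did match a place in the zebrafish genome that could fold into a hairpin. The other 245 were 200 annotated zebrafish miRNAs, 14 from the unannotated arm of a known precursor and 31 conserved miRNAs found through another species. Small RNA had been sequenced from the layers around the oocyte, stripped by hand from vitellogenic follicles of zebrafish bought from a local supplier, whose strain was not given, in 3 pools of stage IIIa and 3 pools of the larger stage IIIb. No fish was treated, each pool held follicles of several fish, and granulosa and theca cells were not separated. The p-values below measure the spread between these pools.

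A miRNA is cut from the stem of a hairpin transcript, first by Drosha in the nucleus and then by Dicer in the cytoplasm, and it guides an Argonaute protein to messenger RNAs that pair with its seed, the bases near its 5′ end. The arm of the hairpin on which the mature sequence lies is written 5p or 3p. The gonads of fish also hold other small RNAs, among them piRNAs of the germ line, which are longer than miRNAs, often begin with U or carry A at the tenth base, and are made without Dicer.

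The predicted miRNAs fell evenly into a long class of 24 to 26 nt and a class of 18 to 23 nt, with 22 members in each. The long members whose values are given below for every sample are shown first, 5′ to 3′, with T for U and with the seed (bases 2 to 8) in capitals. They include the highest, the lowest and, last, the steadiest of their class.
PC-5p-768_6590: tATTACATacaactgttcctgactgt
PC-3p-77075_73: tTCTGGTAagtttctgtaattcaacc
PC-5p-22971_255: tAGCATTGaagttccccatctgaagg
PC-3p-29434_200: cACTAGAGcaacttcaggactaaact
PC-3p-20924_279: tACTGGAGatctccgctaggtgga

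The shorter members are shown in the same way. The first 7 carried the highest counts or the pairs of related sequences, and the others were the members with zeros, with separated stages or with the lowest count.
PC-3p-140_40238: tGCGCATGcgtgaactttgtacc
PC-3p-875_5810: tAAGATTGttttgcttgcactg
PC-3p-4240_1269: tAAGATTGttttgcttacacc
PC-3p-1759_2936: tCAGCACTcggacagcctctt
PC-3p-15383_376: aTAACTCAaacccgaggactgg
PC-3p-13293_430: aTGACTCAaacttgaggactt
PC-5p-1458_3508: tGACTTTAgagaatttgat
PC-3p-17251_338: tATGAAAGtcaatggttacact
PC-3p-5463_997: tTAAGTTGgtacaacatgaagt
PC-5p-19602_298: tGCAAGTAatcatgaataggcc
PC-3p-7308_758: cAAAGTGGgtcggagagctgtt
PC-5p-19218_304: tGAACAATgacagaagagcct
PC-5p-15041_384: tCTGTTGCaaccctgatcaaac
PC-5p-49914_118: tTGGGCAGctgcagatct

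The libraries differed in depth, and that set how well low counts were measured. The deposited values are counts divided by a size parameter of the sample. From their spacing, 1 read was taken as a step worth between 0.350 normalized counts (stage IIIb replicate 3) and 1.58 (stage IIIa replicate 1). The floor of detection, taken as 3 reads, then lay between 1.05 and 4.73. Over all 289 miRNAs this step gave from 1129114 reads (stage IIIa replicate 1) to 9045233 reads (stage IIIb replicate 3). Floors of this kind cover counting error only, since reads after PCR are not independent molecules. The gonad miRNA miR-202 held 16.04% to 23.4% of the counts of a sample. The 6 listed miRNAs of red blood cells summed to 1.08% to 1.47% in the stage IIIa samples and 0.0904% to 0.283% in the stage IIIb samples. miR-122 of liver stayed at or under 0.0293%, the 1 of 3 muscle miRNAs that was listed at or under 0.00551%, and the 3 miR-430 miRNAs of the early embryo at or under 0.0818%.

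The predicted miRNAs held many sequences longer than a usual miRNA. Of the 44, 22 (50.0%) were 24 to 26 nt long, compared with 8 of the 245 other miRNAs (3.27%). Lengths of 26 nt and 22 nt were equally frequent, with 13 members each (29.5%), whereas 63.3% of the other miRNAs were 22 nt long. None of the others had 25 nt and 2 had 26 nt, compared with 6 and 13 of the predicted miRNAs. Reads above 26 nt had been removed before miRNAs were assigned, so the long class ended at the longest length kept. These are counts over names and not a test.

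**Figure D1:**
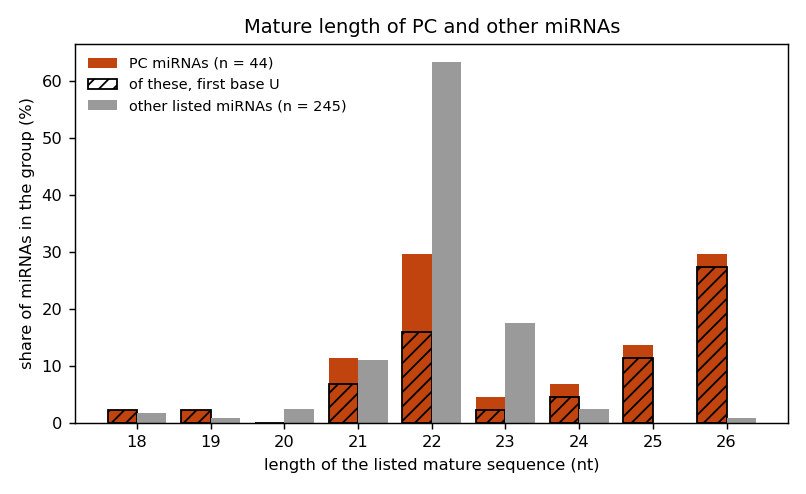
Share of the 44 PC miRNAs (orange) and of the 245 other listed miRNAs (grey) at each length of the mature sequence in nt; the hatched part of an orange bar is the share that also began with U. The PC miRNAs have peaks at 22 and 26 nt with 13 members each, and 12 of the 13 at 26 nt began with U.

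Most long members began with U. The first base was U in 19 of the 22 long members (86.4%), in 13 of the 22 shorter ones (59.1%) and in 118 of the 245 other miRNAs (48.2%). No predicted miRNA began with G, 6 began with A and 6 with C, and all 6 with A were in the shorter class. An A at base 10 was present in 12 of the 22 long members, in 8 of the 22 shorter ones and in 22.04% of the other miRNAs. PC-5p-768_6590, PC-3p-77075_73 and PC-5p-22971_255, shown above, each began with T, whereas PC-3p-29434_200 was 1 of the 3 long members that began with C.

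The predicted precursors lay on 18 chromosomes, 31 on the plus strand and 13 on the minus strand (positions of the authors' tables, build GRCz11). Chromosome 4 held 10 of the 44, all on the plus strand, and 8 of these 10 belonged to the long class. Among the other miRNAs with a listed position, 3 of 45 were on chromosome 4. Of the 10, 9 had an A at base 10. The next chromosome was 20, with 4 members. The precursors of chromosome 4 began between base 19587679 (PC-5p-19218_304) and base 75797756 (PC-3p-29434_200), and all but the first began at base 28761860 (PC-5p-14802_390) or beyond. The closest pair of PC precursors on any chromosome, PC-3p-15383_376 and PC-3p-4240_1269 on chromosome 9, began 9812 bases apart. Their intervals were chr9:5242718-5242847 and chr9:5252530-5252675, both on the plus strand. Whether the precursors fall in genes, introns or repeats was not analysed here, as no annotation of that build was used.

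Every predicted precursor folded into a hairpin, as the prediction had required. Folded with RNAfold, the 44 precursors of 66 to 160 bases had minimum free energies from -71.6 to -15.7 kcal/mol, with a median of -33.35. The median was -27.65 kcal/mol for the long class and -36.25 kcal/mol for the shorter class, at the same median length of 94.5 bases. Between 13 and 23 bases of the mature sequence were paired (median 19.5), and the arm read from the position was the arm in the name for all 44. The 3p arm carried 28 members and the 5p arm 16. No PC precursor overlapped any other of the 89 listed precursor positions, so no hairpin had both arms among these. The prediction had required that hairpins not overlap known precursors, and the 89 included no position of the 200 annotated miRNAs. Of the 245 other miRNAs, 80 had another arm of the same name in the list. These were matched by name and not by position, and the others had higher counts (median 481, compared with 44.3).

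The extreme hairpin was that of PC-3p-1759_2936 (chr1:10987358-10987451, plus strand), at -71.6 kcal/mol. Its facing arm holds a stretch that pairs with all 21 bases of the mature sequence without a mismatch or bulge, shown here because the median of the longest such run over the 44 was 7 bases.
PC-3p-1759_2936 facing arm: aagaggctgtccgagtgctga
The weakest was that of PC-5p-768_6590 (chr14:13319229-13319310, minus strand), the most abundant long member, at -15.7 kcal/mol.

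In 7 of the 44 the listed mature sequence differed from its own precursor by 1 base, and in the other 37 it matched exactly. The alignment had allowed 1 mismatch. Counted from the 5′ end of the mature sequence, with the mature base first and the precursor base last, the differences were A1C in PC-5p-2332_2235, T10G in PC-3p-5463_997, G17A in PC-3p-875_5810, T17C in PC-5p-15041_384, A18G in PC-3p-5289_1028, G20A in PC-3p-17252_338 and G25T in PC-3p-3862_1376. Thus PC-3p-875_5810 and PC-3p-5463_997, both uneven between samples (below), were not exact copies of the genomic place assigned to them.

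A few predictions were related to one another. Among the 946 pairs of members, 11 members in 5 groups had similar precursors, and all 11 were from the shorter class. PC-3p-13293_430 (chr4:32412985-32413075), PC-3p-15383_376 and PC-3p-4095_1308 (chr5:6778475-6778612) formed a group in which the first pair shared 86.2% of 87 aligned bases in the same orientation. The precursor of PC-3p-4095_1308 matched that of PC-3p-15383_376 as the reverse complement, with 89.2% identity over 130 bases. The whole mature sequence of PC-3p-4095_1308, 22 of 22 bases, was present as its reverse complement in the precursor of PC-3p-15383_376, in the stretch below.
PC-3p-15383_376 precursor, bases 32 to 53: agtcttctggttcttgagttgt
A second group joined PC-3p-4240_1269 and PC-3p-875_5810, the only members with the same seed (AAGATTG). The first 20 of the 21 bases of PC-3p-4240_1269 were also present in the precursor of PC-3p-875_5810 (chr6:59694110-59694198), in the stretch below, so reads of one could have been counted for the other.
PC-3p-875_5810 precursor, bases 55 to 74: taagattgttttgcttacac
The remaining groups were pairs whose best match was as reverse complements. They were PC-3p-11648_488 with PC-3p-8524_654 (88.1% over 84 bases), PC-3p-11987_476 with PC-3p-18741_312 (93.5% over 31 bases) and PC-3p-17251_338 with PC-5p-15213_380 (77.8% over 108 bases). In the same orientation the first of these pairs matched at 75.3% over 85 bases and the last at 74.5% over 110 bases. The other 42 members shared a seed with no PC miRNA, and none of the 44 had the seed of any of the 245 other miRNAs. The longest exact run in common with one of those was 12 bases, between PC-5p-49914_118 and dre-miR-25-5p.

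Detection was uneven. In replicates 1 to 3 of stage IIIa, 37, 44 and 42 of the predicted miRNAs were above 0, and in those of stage IIIb 40, 37 and 41. Of their 264 values, 23 were listed at 0, while the 245 other miRNAs had 3 zeros in all. The zeros came from 12 members: 7 were at 0 in 1 sample, 2 in 2, 1 in 3, 1 in 4 and 1 in 5. Stage IIIa replicate 1, the library with the fewest reads, held 7 of the 23 zeros, and stage IIIb replicate 2, with 3221540 reads, also held 7. Left without stage IIIa replicate 1, 37 members were above 0 in every remaining sample, compared with 32 in all 6.

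**Figure D2:**
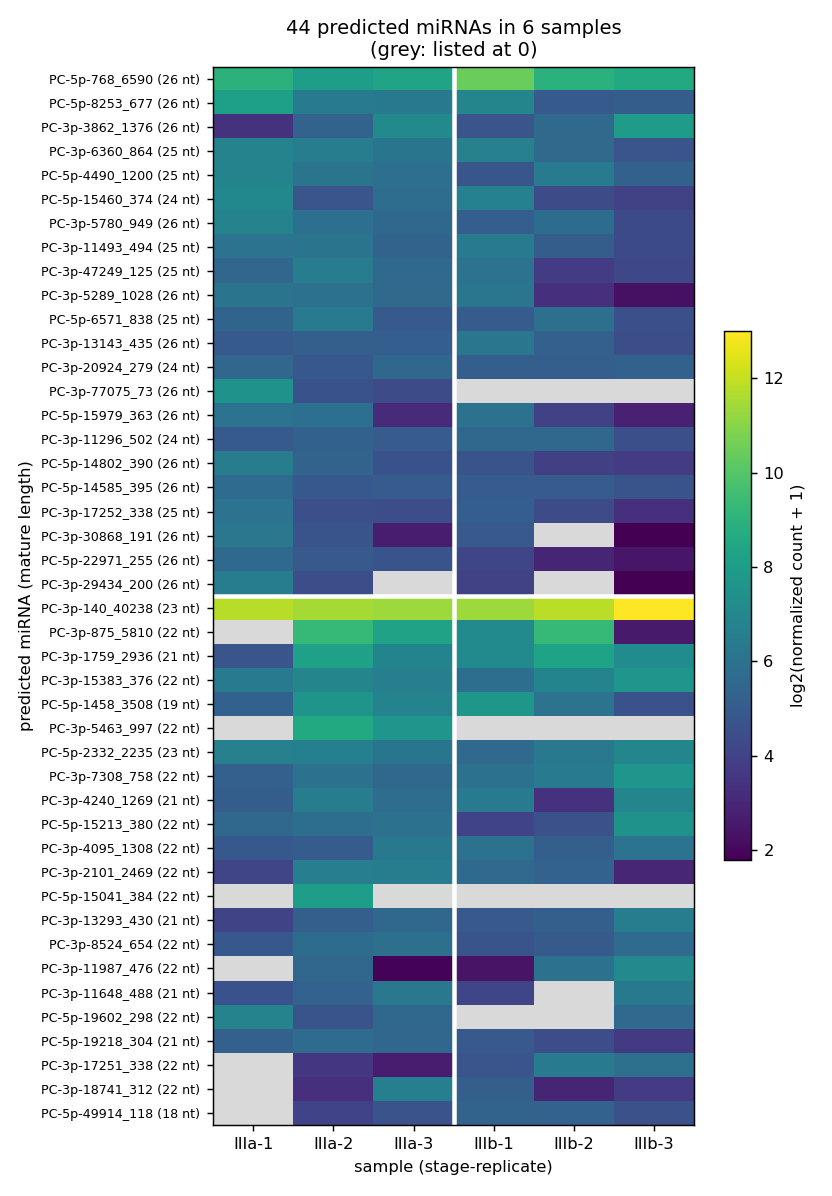
Level of each of the 44 predicted miRNAs (rows, with mature length) in the 6 samples (columns), as log2(normalized count + 1) by colour, with grey for values listed at 0; the white lines separate the stages and the length classes. The long class (top) is at 0 in 3 members and the shorter class in 9, and PC-3p-140_40238 and PC-5p-768_6590 stand above the rest of their classes.

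Read depth behind a predicted miRNA was shallow for most. At least 100 reads in every sample of 1 stage were found for 4 of the 44, compared with 185 of the 245 other miRNAs. When reads were summed over the samples of a stage, 43 of the 44 reached 100 in at least 1 stage, 32 in both, 8 in stage IIIa only and 3 in stage IIIb only. The exception was PC-3p-29434_200. The study's methods name a minimum of 100 counts in all replicates of either stage. Taken per sample, 4 of the 44 met this on the read numbers used here. Whether the study applied it to sums over a stage was not stated. As either stage was enough, a miRNA under the minimum in 1 stage was listed only where the other stage reached it. Stage differences of such members can be built in by that rule. Of the 241 values above 0, 209 were whole multiples of the value of 1 read and 32 lay midway between whole multiples, spread over 13 members.

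The most abundant member was PC-3p-140_40238 (chr20:21349981-21350047, plus strand), which had 3582, 2856 and 2599 normalized counts in replicates 1 to 3 of stage IIIa and 2646, 3683 and 8168 in those of stage IIIb. Stage IIIb replicate 3 was the highest and the ranges of the stages overlapped (log2 fold change 0.53, SE 0.42, limma adjusted p = 0.590). It took 42.4% to 76.2% of the counts of the 44, the highest share being in stage IIIb replicate 3, and over 50.0% in 3 of the 6 samples. PC-3p-140_40238 held 0.126% to 0.258% of all counts of a sample, while the other 21 members of its class together held 0.0350% to 0.118%. PC-5p-768_6590, the highest of the long class, had 502.7, 259 and 317 normalized counts in stage IIIa and 1392, 496 and 384 in stage IIIb. Stage IIIb replicate 1 stood apart and the other 5 samples overlapped across the stages (log2 fold change 0.89, SE 0.49, limma adjusted p = 0.430).

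Among the 6 most abundant members, PC-3p-875_5810 was the least even. It had 0, 630.4 and 305 normalized counts in stage IIIa and 142, 629 and 5.08 in stage IIIb. In each stage it was thus high in some pools and at or near 0 in another, and its within-stage SD of 4.34 on the log2 scale was the largest of the 289 miRNAs. The related PC-3p-4240_1269 had 33.1, 91.3 and 54.8 normalized counts in stage IIIa and 80.9, 9.54 and 118 in stage IIIb, so that it was highest in the stage IIIb sample in which PC-3p-875_5810 was lowest above 0. PC-3p-1759_2936, the perfectly paired hairpin, had 26, 292 and 114 normalized counts in stage IIIa and 139, 311 and 150.2 in stage IIIb, with overlap and its lowest value in stage IIIa replicate 1. PC-5p-1458_3508 (chr21:29340397-29340502), at 19 nt the second shortest, had 37.8, 190.3 and 111 normalized counts in stage IIIa and 211.5, 66.0 and 23.3 in stage IIIb, again overlapping. PC-3p-15383_376 was steadier, with 81.9, 118 and 96.2 normalized counts in stage IIIa and 55.8, 114 and 203 in stage IIIb. Its relative PC-3p-13293_430 had 15.8, 35.7 and 46.2 in stage IIIa and 29.7, 35.7 and 88.2 in stage IIIb. Both were highest in stage IIIb replicate 3, and neither separated the stages.

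The predicted miRNAs spread widely between pools. The median within-stage SD of log2(normalized count + 1) was 0.997 for the 44, compared with 0.476 for the 245 others. Among miRNAs with a mean under 100 normalized counts it was 0.946 for the 37 predicted miRNAs and 0.589 for the 62 others. The shorter class had a median SD of 1.40 and the long class 0.778. For the predicted miRNAs the within-stage variance was 38.4 times (median, range 1.83 to 1582) what counting of reads alone would give, below the 82.8 times of the 245 others, whose counts were higher. At a mean under 100 this ratio was 28.2 for predicted and 14.7 for other miRNAs (medians).
The steadiest member was PC-3p-20924_279, of the long class, with an SD of 0.253 and a variance 1.83 times that of counting. It had 43.3, 28.5 and 44.6 normalized counts in stage IIIa and 35.7, 34.0 and 37.6 in stage IIIb, and its stages overlapped.

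**Figure D3:**
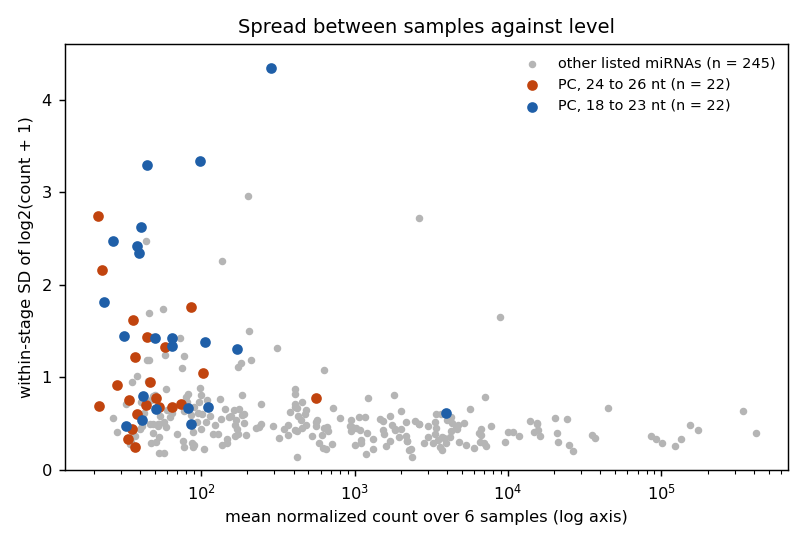
Within-stage SD of log2(normalized count + 1) against the mean normalized count over the 6 samples (log axis), 1 point per miRNA, for PC miRNAs of 24 to 26 nt (orange), of 18 to 23 nt (blue) and the other listed miRNAs (grey). The PC miRNAs lie mostly under 100 normalized counts with a median SD of 0.997, and the highest point is PC-3p-875_5810 at 4.34.

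Stages IIIa and IIIb were compared to ask which miRNAs change as vitellogenic follicles grow. No predicted miRNA passed an adjusted p of 0.05 in limma (0 of 44), at which 4.50% of all 289 miRNAs did. An equal-variance test of untransformed counts, the kind the study's methods name without mention of adjustment, gave 0 of all 289 after adjustment. Without adjustment it called PC-3p-17251_338 higher and PC-5p-19218_304 and PC-5p-22971_255 lower, where 5.54% of all miRNAs were called in each direction. These calls differ from those of the study, which reported 1 predicted miRNA of this kind as lower in stage IIIb and none as higher. When p was 0.05 or less without adjustment, 1 of the 44 was higher in stage IIIb, where 9.69% of all miRNAs were, and 3 were lower, where 5.19% were. Separated stages, with every sample of one above every sample of the other, were found for 2 members with stage IIIb higher (11.8% of all miRNAs) and 3 with stage IIIb lower (7.96%). By summed reads, PC-3p-17251_338, PC-3p-5463_997, PC-3p-77075_73 and PC-5p-22971_255 reached the minimum for listing only in the stage where they were high. PC-5p-19602_298, PC-3p-7308_758 and PC-5p-19218_304 reached it in both stages. The limma and separation counts, and their comparison with all miRNAs, are therefore not independent of that minimum. With 3 pools per stage, an exact permutation test of a single value cannot give a two-sided p under 0.1. The red blood cell miRNAs, 6 of 6 of which were listed, summed to less in every stage IIIb sample as given above, and their part in the values of the predicted miRNAs was not tested.

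PC-3p-77075_73 (chr15:8498666-8498825, plus strand) had 180, 23.6 and 19.9 normalized counts in stage IIIa, behind which were 114, 43 and 37 reads, and 0 in all 3 stage IIIb samples. The stages did not overlap, and stage IIIa replicate 1 held 80.5% of the total. Against a floor of 3 reads per library, the stage IIIa mean of 74.4 was at least 39.4-fold higher than that of stage IIIb. That bound covers counting error only, and the within-stage variance was 150 times that of counting. The log2 fold change of -5.50 (SE 1.53), which depends on the pseudocount, had a limma adjusted p of 0.0690. The untransformed test did not call this member at an unadjusted p of 0.05 or less. Over the limma alternatives the adjusted p ranged from 0.0104 to 0.178. It was 0.0426 without stage IIIa replicate 1, 0.0336 without stage IIIa replicate 2 and 0.0104 in limma without the mean-variance trend, under 0.05 in each. By summed reads, PC-3p-77075_73 reached the minimum for listing in stage IIIa only. Neither the bound nor these p-values are therefore independent of that minimum.

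PC-3p-17251_338 (chr21:11975430-11975542, minus strand) was the member with the opposite pattern. It had 0, 10.97 and 5.38 normalized counts in stage IIIa and 26.1, 86.7 and 59.5 in stage IIIb. Every stage IIIb sample was above every stage IIIa sample, with means of 5.45 ± 5.48 and 57.5 ± 30.4 (SD, n = 3 each). Its log2 fold change of 3.63 (SE 1.14) did not pass the adjustment (limma adjusted p = 0.108). The precursor related to it, PC-5p-15213_380, had 15.5 to 183 normalized counts in stage IIIb and 45.7 to 61.8 in stage IIIa, with overlap.

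The other members with an unadjusted limma p at or under 0.05 were both at 0 in several samples. PC-3p-5463_997 (chr5:69778926-69779021, minus strand) had 0, 384 and 204 normalized counts in stage IIIa and 0 in all 3 stage IIIb samples. As stage IIIa replicate 1 was also at 0, the stages overlapped. Against the floor of 3 reads per library, the mean of stage IIIa was at least 104-fold higher (log2 fold change -5.42, SE 2.16, limma adjusted p = 0.265). That bound covers counting error only, and the within-stage variance of this member was 153 times that of counting. Without stage IIIa replicate 1 the adjusted p was 0.000793, and over the limma alternatives it ranged from 0.000793 to 0.576. PC-5p-19602_298 (chr2:21375529-21375600, minus strand) had 112, 24.7 and 45.2 normalized counts in stage IIIa and 0, 0 and 48.7 in stage IIIb. Stage IIIb replicate 3 lay within the range of stage IIIa (log2 fold change -3.80, SE 1.5, limma adjusted p = 0.262). With the replicate number as a block neither of these members had an unadjusted p at or under 0.05, nor did either in the untransformed test. PC-3p-5463_997 also lay above 0.05 with a pseudocount of 0.1, with equal totals and by the median of ratios. It did so too without stage IIIa replicate 2 or 3, or stage IIIb replicate 1 or 3. PC-5p-19602_298 lay above 0.05 without stage IIIa replicate 1 or stage IIIb replicate 1. Summed over stages IIIa and IIIb, PC-3p-5463_997 had 1081 and 0 reads, PC-3p-77075_73 194 and 0, and PC-3p-17251_338 30 and 311.5. Each reached 100 reads only in the stage where it was high. Their stage differences are therefore not independent of the minimum for listing.

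PC-5p-15041_384 (chr19:30527377-30527482, minus strand) was present in 1 library alone, with 267 normalized counts, or 487 reads, in stage IIIa replicate 2 and 0 in the other 5 samples. No difference between the stages can be read from a single pool, and the limma adjusted p was 0.685. PC-3p-29434_200 (chr4:75797756-75797891, plus strand), the lowest long member, had 88.2, 21.4 and 0 normalized counts in stage IIIa and 14.8, 0 and 2.45 in stage IIIb, with overlap. PC-5p-49914_118 (chr2:8657373-8657462, plus strand), at 18 nt the shortest, had 0, 15.4 and 24.2 normalized counts in stage IIIa and 40.3, 38.2 and 22.4 in stage IIIb. Its stages overlapped through stage IIIa replicate 3 alone, and its limma adjusted p was 0.458.

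The remaining separated members had no zeros. PC-5p-22971_255 (chr4:74307054-74307147, plus strand), of the long class, had 48.9, 29.1 and 24.7 normalized counts in stage IIIa and 16.2, 6.64 and 4.55 in stage IIIb (log2 fold change -1.91, SE 0.89, limma adjusted p = 0.332). PC-5p-19218_304 (chr4:19587679-19587780, plus strand) had 36.2, 51.0 and 44.1 in stage IIIa and 29.7, 20.7 and 11.9 in stage IIIb (log2 fold change -1.11, SE 0.67, limma adjusted p = 0.484). PC-3p-7308_758 (chr19:4916274-4916339, plus strand) had 36.2, 62.0 and 46.2 in stage IIIa and 63.6, 83.0 and 201 in stage IIIb (log2 fold change 1.10, SE 0.55, limma adjusted p = 0.360). In each of these the gap between the nearest samples of the stages was smaller than the range within either stage.

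The remaining 26 members, 18 of them long, all had overlapping stages on the deposited scale. Their means over the 6 samples lay between 22.6 and 102 normalized counts, and 22 were above 0 in every sample and 4 in 5 of the 6. The log2 fold changes ran from -2.30 to 2.67, and the smallest limma adjusted p was 0.339.

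**Figure D4:**
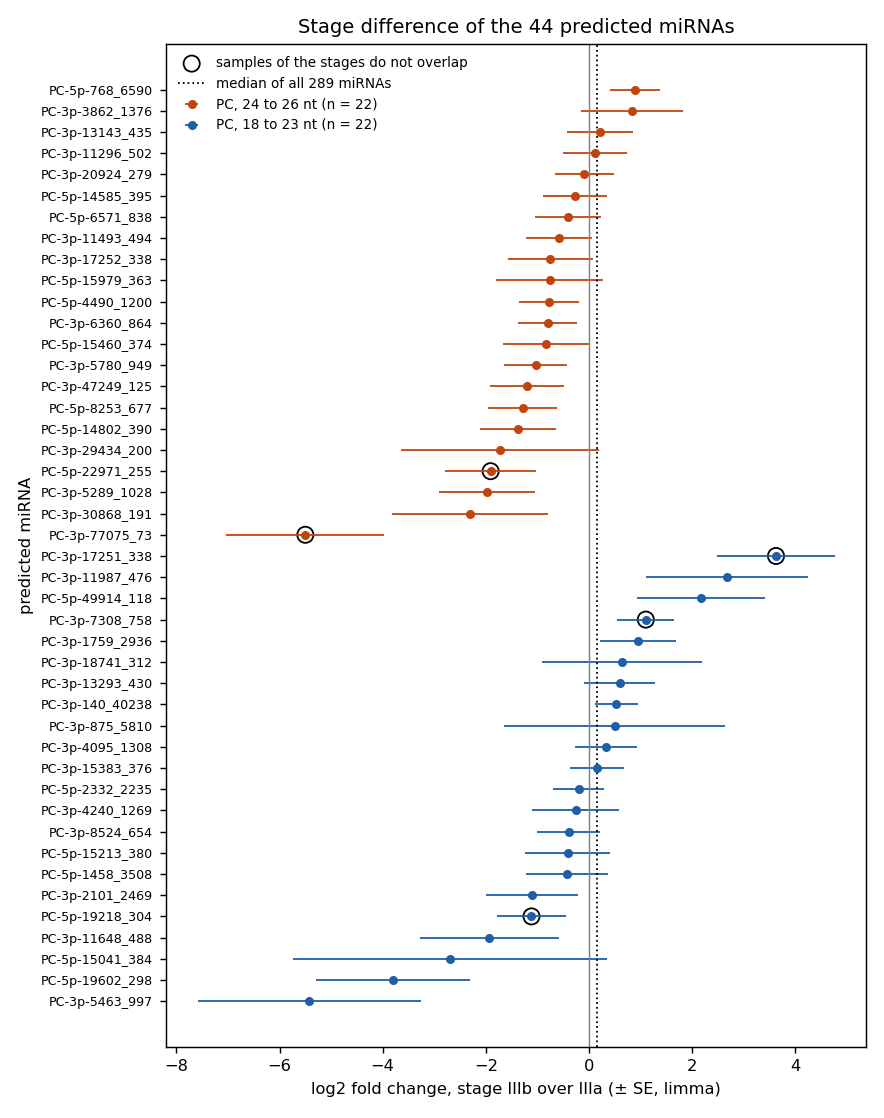
Log2 fold change of each of the 44 predicted miRNAs, stage IIIb over stage IIIa on the log2(normalized count + 1) scale, with bars of 1 SE from limma; orange for 24 to 26 nt, blue for 18 to 23 nt, open circles for members whose stages did not overlap, and a dotted line at the median of all 289 miRNAs (0.15). Of the 22 long members, 18 lie below 0, and none of the 44 had an adjusted p under 0.05.

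Without any single member passing the test, the long class lay mostly on the stage IIIa side. Of its 22 members, 18 had a log2 fold change below 0 with a median of -0.79, compared with 11 of 22 and a median of -0.02 in the shorter class. Over all 289 miRNAs, 42.2% were below 0 and the median was 0.15. Of the 8 other miRNAs of 24 to 26 nt, 5 were below 0, with a median of -0.11. After rescaling to equal totals the median was -1.10 for the long class and -0.16 for all miRNAs, and by the median of ratios -0.96 and -0.02. The share of all miRNAs below 0 was then 59.9% and 51.2%, and 20 and 19 of the 22 long members were below 0. A filter at a mean of 100 normalized counts left only 2 long members, 1 below 0 and 1 above. Of all 7 predicted miRNAs it left, 2 were below 0, where 37.4% of the 190 miRNAs kept were. At a mean under 100, 27 of the 37 predicted miRNAs and 24 of the 62 others were below 0. Of the 10 members on chromosome 4, 8 of which were long, 8 were below 0 with a median of -0.96. By arm, 14 of the 16 5p members were below 0 with a median of -0.77, and 9 of the 16 were long. Of the 28 3p members, 13 were long, and 15 were below 0 with a median of -0.17. The parts of length and arm in this direction were not tested. Among the long members below 0, PC-3p-77075_73, PC-5p-22971_255, PC-5p-14802_390, PC-3p-30868_191 and PC-3p-17252_338 reached 100 summed reads in stage IIIa only. Their direction is not independent of the minimum for listing. The long class shifted with single libraries: its median was -0.48 without stage IIIa replicate 1, -1.23 without stage IIIb replicate 1 and -0.32 without stage IIIb replicate 3, with 17 to 20 of 22 below 0 whichever sample was left out. The shorter class shifted as well, from -0.58 without stage IIIa replicate 1 to 0.12 without stage IIIa replicate 2. Without stage IIIa replicate 1 its median was below that of the long class, with 13 of 22 members below 0, so the contrast of the class medians was not kept without that library.

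Replicate 1 of each stage was the highest for the long class. Its summed share of the counts was 0.125%, 0.0579% and 0.0572% in stage IIIa and 0.133%, 0.0411% and 0.0305% in stage IIIb, with the stages overlapping. Without PC-5p-768_6590 the other 21 long members held 0.0970%, 0.0461% and 0.0418% in stage IIIa and 0.0565%, 0.0226% and 0.0184% in stage IIIb. The stages overlapped, at 0.0616% ± 0.0307 and 0.0325% ± 0.0209 (SD, n = 3 each). By normalized count, 13 of the 22 long members were highest in stage IIIa replicate 1, and by share of the sample 14 were, with 5 more highest in stage IIIb replicate 1. These libraries had the fewest recovered reads of their stages, 1129114 and 2575578, and whether depth had a part in this was not tested.

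**Figure D5:**
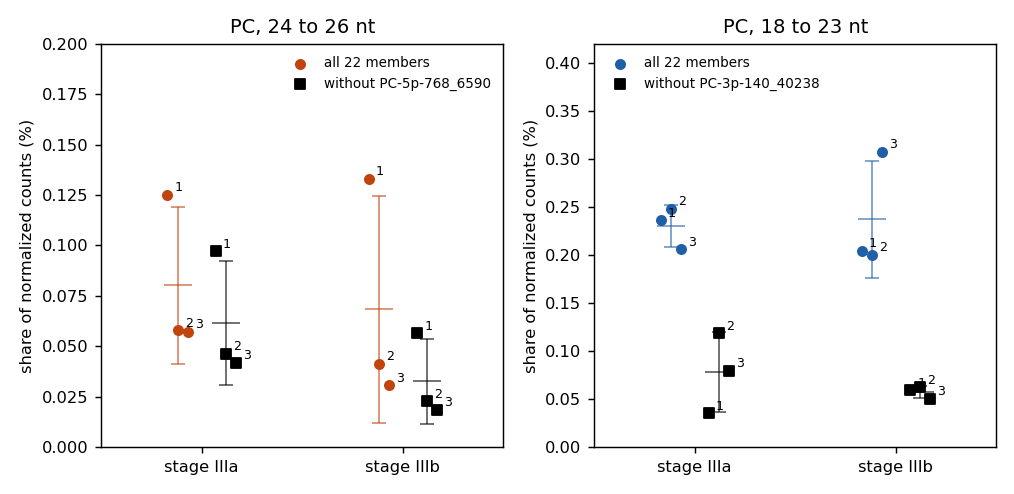
Summed share of the normalized counts (%) of the PC miRNAs of 24 to 26 nt (left, orange) and 18 to 23 nt (right, blue) in each sample, numbered by replicate, with and without (black squares) the most abundant member of the class; horizontal lines and bars are the mean and SD of 3 pools. Replicate 1 of both stages is highest for the long class, at 0.125% and 0.133%, and the stages overlap in each set.

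The shorter class did not share this order. It held 0.236%, 0.248% and 0.206% of the counts in stage IIIa and 0.204%, 0.200% and 0.308% in stage IIIb. By normalized count 9 of its 22 members were highest in stage IIIb replicate 3. By share of the sample 6 were, with 5 highest in stage IIIa replicate 2 and 5 in stage IIIa replicate 3. Without PC-3p-140_40238 the shares were 0.0350%, 0.118% and 0.0796% in stage IIIa and 0.0590%, 0.0623% and 0.04998% in stage IIIb, with the lowest in stage IIIa replicate 1, where the long class was high. Between stages, the means of the 21 members without it were 0.0777% ± 0.0417 and 0.0571% ± 0.00636 (SD, n = 3 each), a difference within the spread of stage IIIa.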

How the data were processed

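Small RNA of 3 stage IIIa and 3 stage IIIb pools was analysed from the deposited tables of normalized counts. The authors removed adaptor dimers, repeats, low complexity reads and other RNA families, kept reads of 18 to 26 nt, aligned them to miRBase 22.0 with 1 mismatch allowed, searched the rest in GRCz11 for hairpins, and divided counts by a library size parameter. The deposited signal values are these normalized counts, not raw counts. Groups follow the sample labels.

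The 44 names starting with PC were matched to the authors' sequence table for sequences, precursors and positions, and no value was taken from it. Precursors were folded with RNAfold (ViennaRNA 2.7.2) and aligned locally with Biopython 1.88. Stages were compared with limma 3.58.1 (R 4.3.3) on log2(normalized count + 1) with a trend of variance on level. Tests were two-sided, no filter was applied, and p was adjusted by Benjamini-Hochberg over the 289 miRNAs. On this scale the pseudocount pulls the change of low miRNAs toward 0, but a zero in single pools can enlarge or reverse it. PC-5p-19602_298 had a log2 fold change of -3.80 at a ratio of stage means (IIIb over IIIa) of 0.268. PC-3p-875_5810 had a log2 fold change of 0.50 at a ratio of 0.83. In each sample the finest step that divided all PC values above 0 was sought, at a tolerance of 0.02 steps. As 1 read, the coarser step was taken of which most of these values were whole multiples, with the rest midway between. This was an assumption, and all read numbers, floors and ratios to counting rest on it. By this step 86.7% of the PC values above 0 were whole reads. No count model was used, because the deposited values are normalized and not raw counts. The fit was tested on simulated data.

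Values in every sample were given for the 6 highest means, an unadjusted p of 0.05 or less, separated stages, zeros in 2 or more samples, shared seeds or sequences, and the ends of each length class. PC-3p-20924_279 and PC-5p-15213_380 were added after their values were seen. The members and lists were chosen with earlier results of these data known. Alternatives were other pseudocounts (0.1 and 10), filters at means of 20 and 100, scalings, limma settings, the untransformed test that the study names, the replicate block, and each pool left out.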

Additional observations from a re-analysis of the deposited data

How the results depend on the processing

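Leaving out 1 pool or the most abundant member moved the stage difference of the summed shares by less than the larger SD within a stage, although its sign was not kept in every case. The difference, stage IIIb minus stage IIIa in percentage points, was -0.00472 for all predicted miRNAs (-0.0283 to 0.0275 with 1 pool left out), -0.0119 for the long class (-0.0443 to 0.0107) and 0.00719 for the shorter class (-0.0280 to 0.0259, and -0.0206 without PC-3p-140_40238). The number above 0 in all samples stayed within 1.5 times, from 25 to 37. The unadjusted limma test called 1 predicted miRNA higher in stage IIIb and 3 lower. The number lower was the same with a pseudocount of 0.1 (5.54% of all miRNAs), equal totals (14.5%) and the median of ratios (10.7%). In each of these, however, PC-5p-22971_255 replaced PC-3p-5463_997. A filter at a mean of 100 normalized counts left 7, with 0 higher and 0 lower (12.6% and 5.79% of the 190 miRNAs kept). Scaling by the median of ratios gave 2 higher (12.5% of all miRNAs), and limma without the trend gave 6 lower (5.54% of all) and 1 at an adjusted p under 0.05 (3.46% of all). Leaving out 1 pool gave 0 to 3 higher, 3 to 6 lower and 0 to 2 at an adjusted p under 0.05. The count higher was 2 without stage IIIa replicate 2 (9.34% of all), stage IIIa replicate 3 (8.30%) or stage IIIb replicate 3 (6.92%). It was 3 without stage IIIb replicate 1 (15.6% of all) and 0 without stage IIIb replicate 2 (6.23% of all). The count lower was 6 without stage IIIb replicate 1 (5.88% of all). The adjusted count was 2 without stage IIIa replicate 1 (3.46% of all) and 1 without stage IIIa replicate 2 (2.42% of all). The members behind these adjusted counts, PC-3p-77075_73 and PC-3p-5463_997, reached the minimum for listing in stage IIIa only, by summed reads. Of 18 named members, 13 kept their direction in every limma alternative in which they were fitted. PC-3p-875_5810 had a log2 fold change of -0.15 with a pseudocount of 10, and from -2.43 to 2.37 with 1 pool left out. PC-3p-15383_376 had -0.15 with equal totals, with and without the replicate block, -0.014 by the median of ratios, and -0.29 to 0.63 with 1 pool left out. With 1 pool left out, PC-5p-1458_3508 ran from -1.22 to 0.34, PC-3p-4240_1269 from -0.93 to 0.82 and PC-5p-15041_384 from -4.03 to 0, the last without the only pool that held it. The cause of the other changes was not tested.

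Deviations of same-numbered samples correlated at 0.103, 0.280 and -0.0336 over all miRNAs and at 0.250, 0.375 and 0.0121 over the predicted ones. Not every sample correlated best with its own number, although over the predicted miRNAs replicates 1 and 2 of each stage did. As 1 of 3 pairs lay under 0.1, the main test did not take the numbers to pair the pools. These values cannot exclude pairing, since the fish shared between pools were not stated and each deviation is from a mean of 3 pools. With the number as a replicate block, 2 predicted miRNAs were higher (14.5% of all miRNAs), 4 were lower (5.88% of all) and 0 had an adjusted p under 0.05. PC-3p-5463_997 and PC-5p-19602_298 were then no longer among the lower ones, and PC-5p-14802_390, PC-5p-22971_255 and PC-5p-8253_677 were, with PC-5p-768_6590 added to the higher ones. With the block and equal totals, added after the data were seen, 7 were lower (14.5% of all).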
